A study of Lens culinaris with 50 samples.

Results

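The youngest embryo of lentil (Lens culinaris, cultivar CDC Gold) and the seed coat around it were compared at the zygote stage, the first of the 8 embryo stages sampled. The 4 libraries of the comparison, 2 of embryo and 2 of seed coat, were taken by their tissue and stage labels from 50 libraries in all. The other libraries held embryo and seed coat at the 7 later stages, the intact whole seed at each stage and the unfertilized ovule, with 2 libraries for each of 25 combinations of tissue and stage. All plants were of the same cultivar and carried no labelled mutation or chemical treatment. They grew in chambers under long days, and flowers were emasculated and then pollinated so that seeds developed in step. Both tissues were dissected under a microscope, and the seed coat sample was what remained once the embryo had been taken out by hand. Whether any endosperm stayed with either sample is not stated in the labels. RNA was extracted with a kit for small samples and made into libraries with a low-input kit, which amplifies the RNA before sequencing.

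A zygote is the fertilized egg cell of the plant. Its divisions form the embryo proper and the suspensor that anchors and feeds it. The seed coat grows from the integuments of the ovule, so it is maternal tissue that already existed before fertilization, while the embryo carries genomes of both parents. In legumes the seed coat is also the tissue through which sugars and amino acids reach the embryo. The deposited table pairs 0 of its gene identifiers with names, so no gene functions are given, and gene groups are described by their pattern over tissues and stages.

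The embryo libraries held 23674471 and 26207910 reads assigned to genes, and the seed coat libraries 30445383 and 26910639. Values are normalized reads, meaning reads divided by 1 scaling factor per library. Of the 58243 genes in the table, 50.3% and 50.9% had no read in the embryo libraries, against 42.8% and 44.3% in the seed coat libraries. Genes with at least 10 normalized reads were nonetheless more numerous in embryo, with 20694 and 20865, than in seed coat, with 19744 and 20001. The 1000 most abundant genes took 52.3% and 52.6% of the normalized reads in embryo and 46.1% and 46.5% in seed coat. The Spearman correlation across genes was 0.983 between the embryo replicates and 0.988 between the seed coat replicates. The median absolute log2 difference of a tested gene was 0.25 between the embryo replicates, 0.19 between the seed coat replicates and 0.64 between the tissue means. In these bulk samples, fewer cells of a type and less RNA per cell cannot be told apart.

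At the zygote stage genes differed between embryo and seed coat in both directions, and the folds of those higher in embryo were the larger in the median. Of 29440 genes abundant enough to be tested, 5351 (18.2%) differed at least 2-fold with a Benjamini-Hochberg adjusted p under 0.05 by limma. Of these, 2914 (9.90% of tested genes) had the higher level in embryo and 2437 (8.28% of tested genes) in seed coat. The sets are called embryo-high and seed coat-high here. The median fold was 5.40 for embryo-high genes, with quartiles of 2.69 and 16.0, and 3.23 for seed coat-high genes, with quartiles of 2.43 and 4.80. With genes that had no read in the lower tissue set to the lowest fold their reads allow (160 embryo-high and 61 seed coat-high genes, floor of 3 counts per library), the medians were 5.15 and 3.14.

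The numerical balance of the 2 sets depended on scaling, and it turned with TMM scaling (2632 higher in embryo, 2928 in seed coat) and with quantile scaling (2669 and 2798). TMM moved the log2 differences of the tested genes by -0.11 in the median, that is towards the seed coat. Both sets were smaller when any of the compared libraries was left out, which leaves a single library of its tissue. The embryo-high set remained the larger in each case. Among genes that reached 100 normalized reads in the higher tissue, a level required after the data had been seen, 1941 were embryo-high and 1722 seed coat-high.

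The 2 sets differed in their share of large folds. Over 16-fold there were 729 embryo-high genes, 25.02% of the set, against 37 seed coat-high genes, 1.52%. Over 64-fold there were 269 embryo-high genes and, in the other set, 2 genes, Lcu.2RBY.7g017990 and Lcu.2RBY.6g062020, which are described with the named genes. With the genes without a read in the lower tissue at their bound, 705 embryo-high and 37 seed coat-high genes stood over 16-fold, and 262 and 1 over 64-fold, since Lcu.2RBY.7g017990 has no embryo read and its bound lies lower. The median level in the higher tissue was close in the 2 sets, at 306 normalized reads for embryo-high genes and 287 for seed coat-high genes. In the lower tissue it was 22.8 for embryo-high genes in seed coat and 88.8 for seed coat-high genes in embryo. The lower tissue held under 10% of the level of the higher for 1275 embryo-high genes (43.8%) and for 213 seed coat-high genes (8.74%). No test was made of these summaries, since the genes are not replicates.

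**Figure D1:**
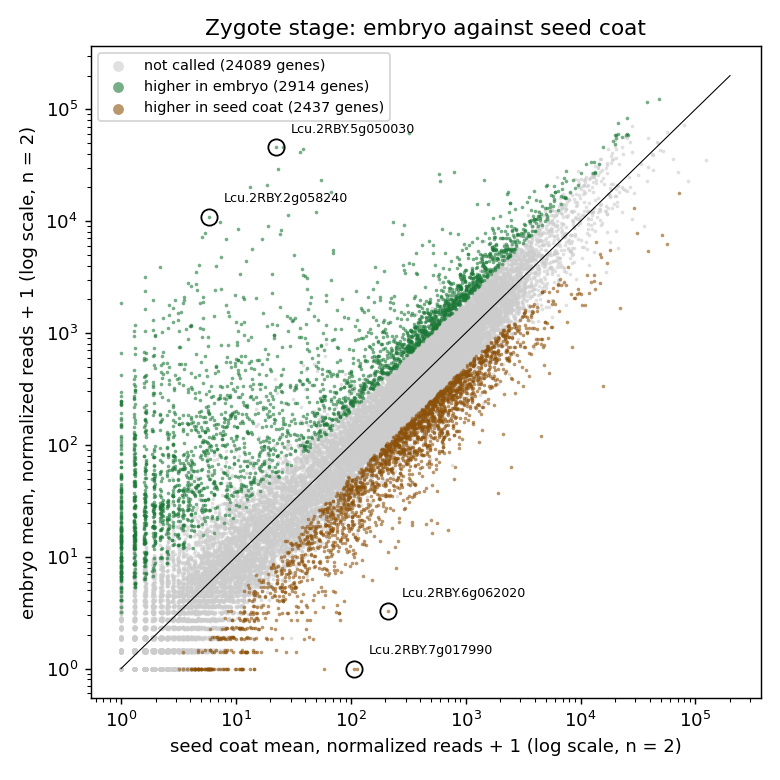
Mean normalized reads plus 1 of each of the 29440 tested genes in zygote stage embryo (vertical axis) against seed coat (horizontal axis), both log scales, n = 2 libraries each; the line marks equal levels and circles mark the named genes of this comparison. The 2914 embryo-high genes reach far to the upper left, where the seed coat mean is near 0, while the 2437 seed coat-high genes stay mostly in a band close to the line.

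How often a gene differed varied with its abundance, taken as the mean of the 4 libraries. Of the 8530 genes with a mean under 10, 3.42% were embryo-high and 2.44% seed coat-high. Of the 6090 genes between 10 and 100, 15.2% were embryo-high and 11.2% seed coat-high. Seed coat-high genes were the more frequent between 100 and 1000, where 11.8% of 10652 genes were seed coat-high and 9.31% embryo-high. Among the 271 genes with a mean of at least 10000, 63 (23.2%) were embryo-high and 9 (3.32%) seed coat-high. The median log2 difference of those 271 genes was 0.82, so the most abundant transcripts of the 4 libraries lay on the whole higher in embryo. The embryo-high genes took 25.5% and 27.1% of the normalized reads of the embryo libraries and 9.93% and 9.06% of those of the seed coat libraries. The seed coat-high genes took 11.7% and 11.3% in seed coat and 2.83% and 2.78% in embryo.

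On the log2(normalized reads + 1) scale of the test, which understates differences against very low levels, the largest differences at the zygote stage among genes that reached 100 normalized reads and had replicates without overlap were those of Lcu.2RBY.2g058240 and Lcu.2RBY.5g050030 in embryo. Lcu.2RBY.2g058240 stood at 12933 and 8975 normalized reads in the embryo libraries and at 1.17 and 8.54 in the seed coat libraries. Both embryo values lay above both seed coat values (log2 difference 11.21, SE 1.33, adjusted p = 2.33e-07 by limma). Its high level was passing. In embryo it had a mean of 26653 at quadrant and 5733 at globular. At heart the 2 embryo libraries lay far apart, at 3422 and 167, and by torpedo the mean was 46.3 and by mature 2.53. In the unfertilized ovule it stood at 2.83 and 2.40. Lcu.2RBY.5g050030 stood at 37793 and 53662 in embryo and at 16.3 and 26.3 in seed coat at the zygote stage (log2 difference 11.02, SE 0.75, adjusted p = 1.31e-11 by limma). Unlike the first gene, it remained high in embryo at each later stage, with means from 26216 at globular to 1117338 at late bent, while the seed coat means lay between 34.3 and 4545. The zygote stage whole seed held 145 and 35.97, both above the seed coat values and far below the embryo values. The unfertilized ovule, which has no embryo, held 75.4 and 560.

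On the seed coat side, the largest differences on the same scale were those of Lcu.2RBY.7g017990 and Lcu.2RBY.6g062020. Lcu.2RBY.7g017990 had no read in either embryo library and stood at 49.6 and 164 in the seed coat libraries (adjusted p = 2.21e-07 by limma). Set against a floor of 3 counts per library, its seed coat mean was at least 40.7-fold higher. Its seed coat level was highest at torpedo, at 1233 and 4152, and lay between 20.2 and 103 in mean at the other later stages. The heart stage whole seed, however, held 1817 and 1165, against 22.4 and 17.9 in the heart stage seed coat and no read in embryo. The cause of this gap was not tested. The gene stood at 4.09 in the ovule and at 48.9 in the zygote stage whole seed, so it was low in the tissue that the seed coat grows from. Lcu.2RBY.6g062020 stood at 4.54 and 0 in embryo and at 171 and 246 in seed coat (log2 difference -6.45, SE 0.75, adjusted p = 1.05e-07 by limma). Its reads numbered 5 in embryo and 668 in seed coat, 94.8-fold apart after scaling (95% counting interval 40.4 to 293). It was seed coat-high at all 7 later stages, with a seed coat mean of 141 at quadrant and 1027 at mature, and stood at 2.85 in the ovule.

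The most abundant gene of the embryo libraries was Lcu.2RBY.5g056620, at 121589 and 124865 in embryo against 51008 and 44595 in seed coat. The difference passed the test (log2 difference 1.37, SE 0.39, adjusted p = 0.00863 by limma), but not without embryo replicate 2 (adjusted p = 0.0566) or without seed coat replicate 2 (0.0778), within a range of 8.59e-06 to 0.0778 over the alternatives. The most abundant gene of the seed coat libraries was Lcu.2RBY.7g001290, at 118099 and 127525 in seed coat against 30603 and 39586 in embryo. Its replicates did not overlap, yet the difference did not pass the test (log2 difference -1.82, SE 1.14, adjusted p = 0.283 by limma). The SE is taken over all groups, and this gene varied widely between replicates at some later stages, for instance 17080 and 1137 in the torpedo stage seed coat. It passed with the spread of the compared libraries alone (adjusted p = 0.00456), with library weights (0.0278) and with quantile scaling (0.0205), in a range up to 0.55. Lcu.2RBY.7g001290 was abundant before fertilization too, at 102520 and 102204 in the ovule. In embryo its mean was 35094 at zygote, 5821 at quadrant and 5.89 at mature.

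**Figure D2:**
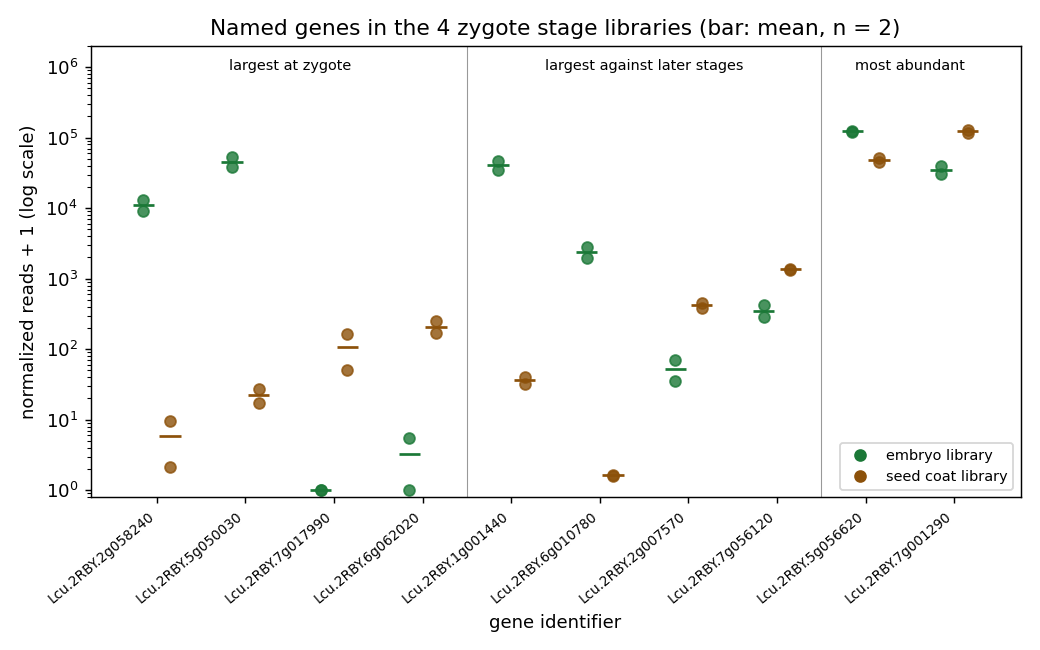
Normalized reads plus 1 (log scale) of the 10 named genes in the 4 zygote stage libraries, with 1 point per library and a bar at the mean of each tissue (n = 2). The embryo and seed coat points of each gene do not overlap. The fold of the test, taken between mean log2 levels in either direction, runs from 2369 for Lcu.2RBY.2g058240 to 2.58 for Lcu.2RBY.5g056620.

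Genes typical of each tissue were used to check the zygote stage labels. They were chosen in the quadrant, globular and heart libraries alone, as genes at least 16-fold apart in the same direction at all 3 stages that reached 100 normalized reads in the higher tissue at each. This gave 174 embryo-typical and 458 seed coat-typical genes. In the zygote stage libraries, which took no part in the choice, 157 of the 174 embryo-typical genes were embryo-high and 17 did not pass the test, beside 9.90% embryo-high among all tested genes. Their median log2 difference was 5.65, with quartiles of 3.57 and 8.00, against -0.07 for all tested genes; with 8 genes without a seed coat read at their bound it was 5.62. Of the 458 seed coat-typical genes, 228 were seed coat-high, beside 8.28% of all tested genes, and 229 did not pass the test. Their median log2 difference was -1.62, with quartiles of -2.33 and -1.08. The remaining gene, Lcu.2RBY.5g065590, named here after its values were seen, was embryo-high, at 168 and 211 in embryo and 13.4 and 46.7 in seed coat (log2 difference 2.85, SE 1.02, adjusted p = 0.0408 by limma). Both tissues were thus on the side of their labels, but far less so for the seed coat-typical genes. The lists were already unequal at quadrant, a stage used to choose them. Their median log2 differences there were 7.39 for embryo-typical and -4.96 for seed coat-typical genes.

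The embryo libraries of the zygote stage held seed coat-typical transcripts at a sizeable share of their seed coat level. The median embryo level of the 458 genes was 33.1% of the seed coat level, with quartiles of 19.6% and 47.8%. It was under 10% for 35 genes, over 50% for 106 and above the seed coat level for 21, with a lowest value of 1.09%. In the other direction the seed coat level of the 174 embryo-typical genes was 1.23% of the embryo level in the median, with quartiles of 0.236% and 7.81%, and 104 of them had a seed coat mean under 10 normalized reads. At quadrant, a stage used for the choice, these medians were 3.28% for seed coat-typical and 0.252% for embryo-typical genes. Of the normalized reads of the zygote stage embryo libraries, the seed coat-typical genes took 1.66% and 1.70%. Of those of the seed coat libraries they took 5.77% and 6.28%. The embryo-typical genes took 1.66% and 2.17% in embryo and 0.0221% and 0.0217% in seed coat. In the zygote stage whole seed the shares were 5.30% and 5.44% for seed coat-typical and 0.0335% and 0.0256% for embryo-typical genes.

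The high embryo level of seed coat-typical genes was found at the zygote stage and not at torpedo. At torpedo, another stage outside the choice, the same 458 genes had a median embryo level of 1.71% of the seed coat level. It was 3.02% at early bent, 8.80% at late bent and 15.1% at mature, where the seed coat median was 334 against 562 at zygote. The embryo median of these genes was 173 at zygote, 11.4 at torpedo and 21.8 at mature. The seed coat level of the embryo-typical genes was 1.23% of the embryo level at zygote, 2.37% at torpedo and 32.1% at mature, where their embryo median was 27.2 against 396 at zygote. No test was made of these medians. Whether the seed coat-typical transcripts in the zygote stage embryo were made there or carried over in dissection was not tested, and the count and folds of seed coat-high genes stand beside this level.

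**Figure D3:**
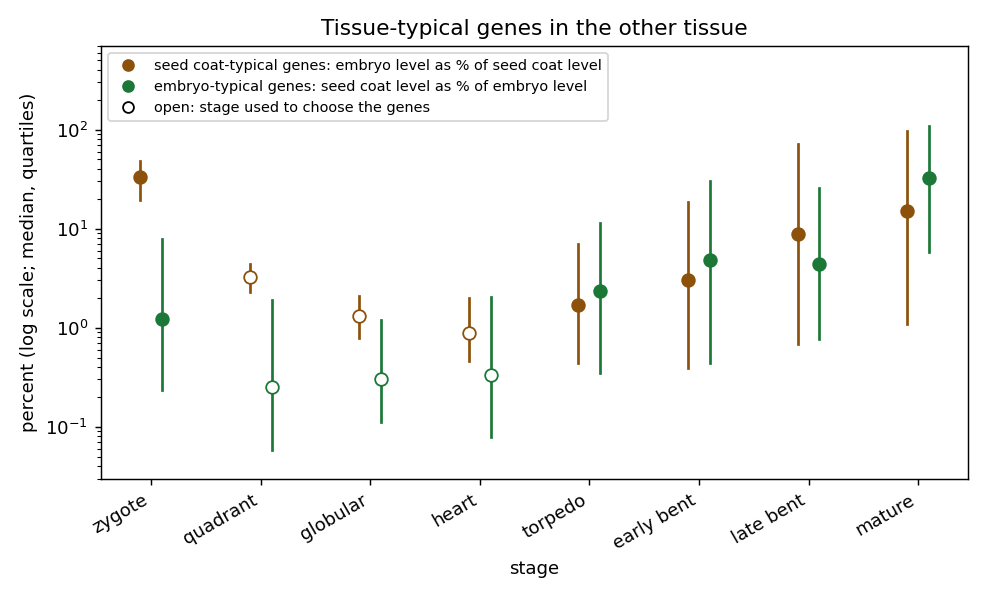
Level of tissue-typical genes in the other tissue as a percent of the level in their own (log scale), by stage; points are medians over 458 seed coat-typical or 174 embryo-typical genes, lines their quartiles, and open points the 3 stages used to choose the genes. The seed coat-typical genes stand at 33.1% in embryo at the zygote stage and at 1.71% at torpedo, while the embryo-typical genes start at 1.23%.

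The whole seed and the ovule gave levels of the zygote stage sets in libraries outside the contrast that defined them. These libraries did enter the filter of tested genes and the spread used by the test. The median of embryo-high genes was 29.5 normalized reads in the zygote stage whole seed, near the 22.8 in seed coat and far from the 306 in embryo. In the unfertilized ovule their median was 47.9. Seed coat-high genes had a median of 268 in the whole seed and 217 in the ovule, against 287 in seed coat and 88.8 in embryo. The 729 genes over 16-fold higher in embryo had a median of 185 in embryo, 1.93 in seed coat, 2.83 in whole seed and 5.46 in ovule. The 37 genes over 16-fold higher in seed coat stood at a median of 152 in seed coat, 5.20 in embryo, 89.4 in whole seed and 20.2 in ovule. The ovule libraries had fewer genes at 0, 18.2% and 21.6%, than the 4 compared libraries, and the part of this in the ovule medians was not tested.

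At later stages the 2 sets took different courses. The median of the embryo-high genes in embryo was 306 at zygote and 337 at quadrant, then 191 at globular, 143 at heart, 110 at torpedo and 77.9 at mature. In seed coat the median of the same genes was 22.8 at zygote and 23.1 at quadrant, then 29.6 at globular, 37.2 at heart, 57.8 at torpedo and 63.3 at mature, so the medians of the tissues lay closer together from globular on than at zygote, but not at quadrant. The seed coat-high genes kept a level median in seed coat, from 287 at zygote to 271 at torpedo and 205 at mature. In embryo their median was 88.8 at zygote and 38.6 at quadrant, and then 61.7 at heart, 125 at late bent and 104 at mature. Among the 29440 tested genes, 16.7% had their highest embryo mean at quadrant and 12.8% at zygote. Among embryo-high genes, chosen with the zygote level, these shares were 45.8% (1334 genes) and 27.01% (787), and 9.81% had it at mature against 35.3% of all tested genes. Among seed coat-high genes 15.7% had their highest seed coat mean at zygote, against 8.48% of all tested genes, and 25.97% at mature, against 29.5%.

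**Figure D4:**
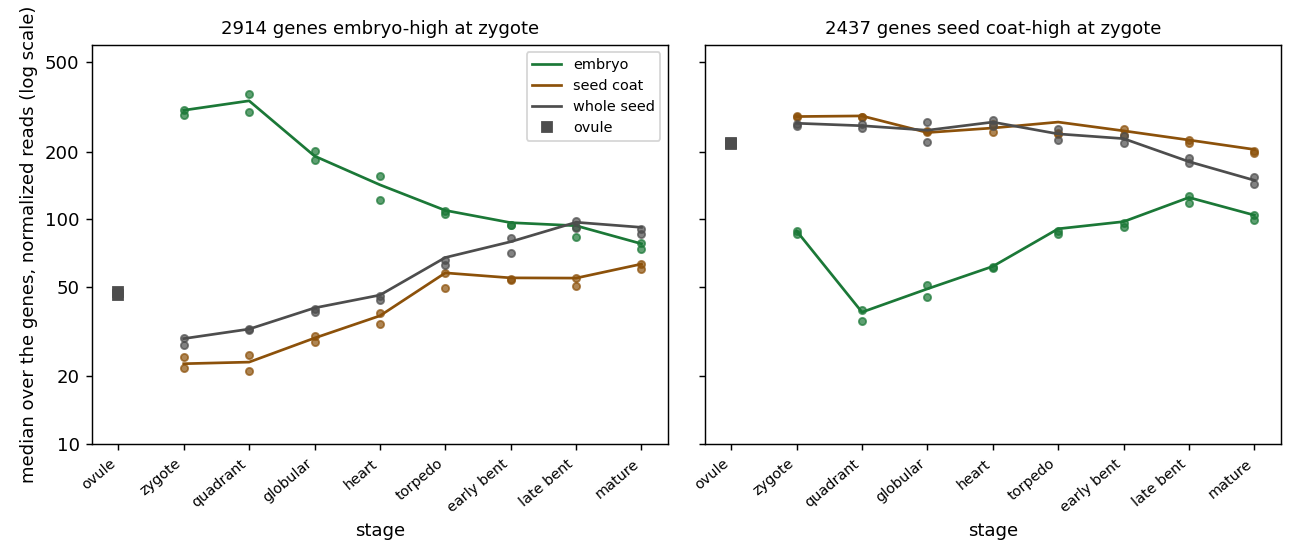
Median normalized reads (log scale) of the embryo-high genes (left) and seed coat-high genes (right) by stage; lines join the medians of group means for embryo, seed coat and whole seed, points are the medians of single libraries (2 per group), and squares the ovule. In embryo the embryo-high genes run from 337 at quadrant to 77.9 at mature, and seed coat-high genes stay between 205 and 289 in seed coat.

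Most genes that differed at the zygote stage differed in the same direction at the quadrant stage, in separate libraries. Of the embryo-high genes, 2349 (80.6%) were embryo-high at quadrant, where 16.5% of all tested genes were. Of the seed coat-high genes, 2086 (85.6%) were seed coat-high at quadrant, against 20.6% of all tested genes. At globular the shares were 55.0% of embryo-high genes, against 12.1% of all tested, and 63.8% of seed coat-high genes, against 15%. At heart they were 38.2% against 11.1%, and 60.4% against 16%. At late bent they were 32.02% against 17.7%, and 41.2% against 23.1%. By mature they had come down to 29.1% (849 genes) against 18.3%, and 41.2% (1003 genes) against 21.9%. A change of side was rare at first: 13 embryo-high genes were seed coat-high at quadrant, and 135 at heart. At torpedo 479 embryo-high genes (16.4%) were seed coat-high, less than the 27.6% of all tested genes, and at early bent 537 (18.4%), against 27.7%. In the seed coat-high set the share that had turned embryo-high reached 22.2% at late bent, against 17.7% of all tested genes, and 21.01% at mature, against 18.3%. Single seed coat libraries at torpedo, early bent and mature (replicate 2 of each) had 13.9% to 19.4% of genes at 0, fewer than the 42.8% to 50.9% of the 4 compared libraries. Leaving these and the 2 ovule libraries out was an alternative chosen after seeing the data. It left a single seed coat library at each of torpedo, early bent and mature, so genes that passed there are not counted. No late bent library was left out, and 541 seed coat-high genes (22.2%) were embryo-high at late bent, against 17.9% of all tested genes. The part of the libraries with few genes at 0 in the calls of their own stages was thus not tested.

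**Figure D5:**
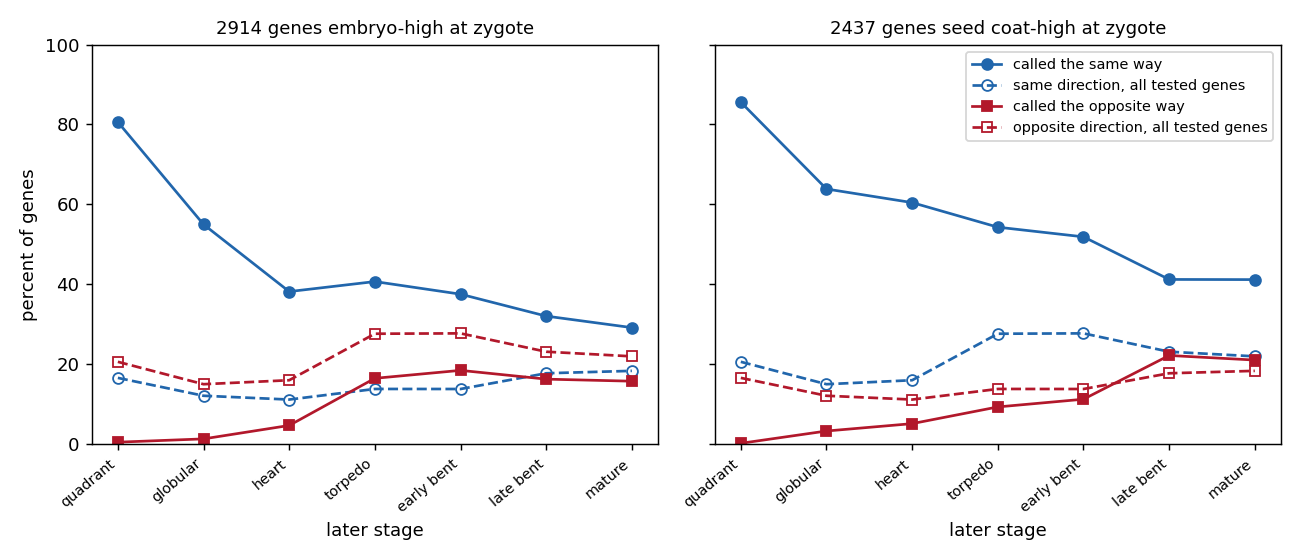
Percent of the 2914 embryo-high (left) and 2437 seed coat-high genes (right) that passed the test in the same direction (filled circles) or the opposite direction (filled squares) at each later stage; open symbols give the percent of all 29440 tested genes in that direction. The share in the same direction goes from 80.6% and 85.6% at quadrant to 29.1% and 41.2% at mature.

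The genes with the largest zygote stage differences were followed separately. Of the 729 genes over 16-fold higher in embryo, 620 (85.0%) were embryo-high at quadrant, against 16.5% of all tested genes, 485 (66.5%) at globular, against 12.1%, and 295 (40.5%) at heart, against 11.1%. At torpedo 212 of them (29.1%) were embryo-high, against 13.8% of all tested genes, and 191 (26.2%) were seed coat-high, against 27.6%. Their embryo median went from 185 at zygote and 128 at quadrant to 45.7 at globular, 23.5 at heart, 6.22 at torpedo and 4.21 at mature. The 37 genes over 16-fold higher in seed coat mostly passed in the same direction later, with 36 seed coat-high at quadrant, against 20.6% of all tested genes, 35 at heart, against 16%, 32 at torpedo, against 27.6%, and 30 at mature, against 21.9%. Their seed coat median was 152 at zygote and 683 at mature. The difference between the 2 groups of genes was not tested.

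The genes were also sorted by their calls at the 7 later stages, and the medians of each class describe that sorting. Of the embryo-high genes, 308 (10.6%) were embryo-high at all 7, against 1.58% of all tested genes. These had an embryo median of 864 at zygote, 1989 at quadrant and 791 at mature. Another 385 (13.2%) were embryo-high at 1 or more stages up to heart and at none after it, and were never seed coat-high, against 4.39% of all tested genes. Their embryo median went from 183 at zygote to 150 at quadrant, 44.2 at globular, 6.88 at torpedo and 5.04 at mature, while that in seed coat lay between 3.06 and 6.63 at all stages. A further 1034 (35.5%) were seed coat-high at 1 or more later stages, which is below the 54.9% of all tested genes. Their embryo median went from 130 at zygote to 23.4 at heart and 6.02 at torpedo, and their seed coat median from 6.39 at zygote to 35.8 at torpedo. The test was passed at no later stage by 100 genes (3.43%), against 18.8% of all tested genes, and these had an embryo median of 48.4 at zygote and 8.20 at quadrant. The 1087 genes left (37.3%) were embryo-high at some but not all later stages, 1 of them or more after heart, and never seed coat-high, against 20.4% of all tested genes. Their embryo median was 911 at zygote and 434 at mature, and their seed coat median 236 and 181.

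Among the seed coat-high genes, 488 (20.02%) were seed coat-high at all 7 later stages, against 3.72% of all tested genes. Their seed coat median went from 266 at zygote to 766 at mature, and their embryo median from 61.5 to 25.9. The 808 genes (33.2%) that were embryo-high at 1 or more later stages were a smaller share than the 40.9% of all tested genes. Their seed coat median went from 369 at zygote to 66.8 at mature, and their embryo median from 116 at zygote and 62.1 at quadrant to 348 at late bent. In 156 genes (6.40%, against 2.73% of all tested) the seed coat-high call was made at 1 or more stages up to heart and at none after it, with no embryo-high call, and with medians at torpedo of 247 in embryo and 294 in seed coat. A further 50 (2.05%, against 18.8%) passed at no later stage. The other 935 genes (38.4%, against 33.9%) were seed coat-high at some but not all later stages, 1 of them or more after heart, and never embryo-high.

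The step from zygote to quadrant was tested gene by gene as a change of the embryo minus seed coat difference. In 1711 genes (5.81%) the difference lay further towards embryo at zygote than at quadrant, and in 623 (2.12%) further towards seed coat. The first group held 95 embryo-high and 584 seed coat-high genes at zygote, and 1623 seed coat-high genes at quadrant. The second held 236 embryo-high and 30 seed coat-high genes at zygote, and 563 embryo-high genes at quadrant. Of all tested genes, 9.90% were embryo-high and 8.28% seed coat-high at zygote, and 16.5% and 20.6% at quadrant. The medians of the first group differed between the stages mainly in embryo. They were 140 in embryo and 294 in seed coat at zygote, and 21.4 in embryo and 323 in seed coat at quadrant. The second group had an embryo median of 876 at zygote and 2004 at quadrant, with 546 and 460 in seed coat. These calls and medians describe how the genes were chosen and are no further support. The sizes of the 2 groups were 1102 and 324 without zygote embryo replicate 1, 1021 and 259 without seed coat replicate 1, 799 and 359 with quantile scaling, and 2672 and 997 with library weights.

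More genes passed the test for embryo against seed coat at quadrant than at zygote. There were 3957 genes that were seed coat-high at quadrant and did not pass at zygote. Their median log2 difference was -0.74 at zygote and -2.35 at quadrant, and 3541 (89.5%) had a difference of the same sign at zygote, against 55.9% of all tested genes that did not pass there. For 1026 of them the change between the stages passed its own test, beside 5.81% of all tested genes. The median level of the 3957 genes in embryo was 79.6 at zygote and 20.5 at quadrant, while that in seed coat was 127 and 133. Another 2518 genes were embryo-high at quadrant and did not pass at zygote. They had a median log2 difference of 0.68 at zygote and 1.51 at quadrant. Of them, 2368 (94.0%) had the same sign at zygote, against 43.4% of all tested genes that did not pass there. The change between the stages passed its test for 323, beside 2.12% of all tested genes. Both groups were chosen by passing at quadrant and not at zygote, which favours such a change.

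Against the mean of the 7 later stages, 4025 genes (13.7%) lay further towards embryo at zygote and 1930 (6.56%) further towards seed coat. With quantile scaling the counts were 3033 and 2860, so the share towards embryo was 51.5% instead of 67.6%. Genes of the first kind had a median of 81.8 in embryo and 39.4 in seed coat at zygote, and of 12.5 and 200.4 at mature. Those of the second kind had a median of 153 in embryo and 265 in seed coat at zygote, and of 294 and 52.6 at mature. The test uses the zygote stage libraries again, so it is not independent of the zygote stage counts.

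The embryo-high genes whose difference lay furthest towards embryo against the later stages were Lcu.2RBY.1g001440 and Lcu.2RBY.6g010780. Lcu.2RBY.1g001440 stood at 47133 and 35206 in embryo and at 31.5 and 39.4 in seed coat at zygote. At quadrant its embryo libraries were at 32488 and 4631 and at heart at 2169 and 42.9, and the embryo mean was 5.54 at late bent. In seed coat its mean was 124 at heart and 1363 at late bent, so the tissue with the higher level had changed (zygote against later log2 difference 11.55, SE 1.26, adjusted p = 6.31e-08 by limma). In the ovule it stood at 2.83 and 3.99. Lcu.2RBY.6g010780 stood at 1980 and 2773 in embryo, and each seed coat library held a single read at zygote. Over these 2 seed coat reads the tissues were 3871-fold apart (95% counting interval 1071 to 31976). Its embryo mean was 1568 at quadrant and 46.8 at globular, and no read was found in either heart stage embryo library. In seed coat it was at 152 at early bent and 176 at late bent (zygote against later log2 difference 10.93, SE 0.86, adjusted p = 5.23e-11 by limma). With edgeR that difference did not pass (adjusted p = 1), within a range of 1.24e-18 to 1 over the alternatives.

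In the other direction Lcu.2RBY.2g007570 and Lcu.2RBY.7g056120 were seed coat-high at zygote and embryo-high from globular on, but not at quadrant. Lcu.2RBY.2g007570 stood at 34.5 and 68.7 in embryo and at 389 and 450 in seed coat at zygote, and it was higher still in the ovule, at 1519 and 1364. At quadrant its mean was 257 in embryo and 246 in seed coat, and the difference did not pass (adjusted p = 0.964 by limma). In embryo its mean was 3567 at heart, and in seed coat it was 21.6 at heart and 0.54 at mature (zygote against later log2 difference -7.78, SE 0.71, adjusted p = 8.39e-10 by limma). Lcu.2RBY.7g056120 stood at 282 and 420 in embryo and at 1334 and 1365 in seed coat at zygote, and at 2498 and 2736 in the ovule. At quadrant it was still seed coat-high, with means of 108 in embryo and 995 in seed coat (adjusted p = 1.21e-06 by limma). Its embryo mean was 6539 at heart and 37253 at early bent, while the seed coat mean was 192 at heart and 25.1 at early bent (zygote against later log2 difference -7.64, SE 0.50, adjusted p = 1.52e-12 by limma). Both genes were thus at their seed coat maximum at zygote, below their level in the ovule.

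Embryo-high genes often had neighbouring identifiers. The identifiers carry a number from 1 to 7 or mark an unplaced sequence, and they are numbered in series within each. Of the embryo-high genes, 803 (27.6%) had an adjacent tested identifier that was also embryo-high, whereas 18.5% of all tested genes had an embryo-high neighbour. For the 729 genes over 16-fold the share was 24.6% (179 genes) against 4.74%. For the seed coat-high genes it was 21.1% (514 genes) against 15.8%. Over the numbers 1 to 7 the share of embryo-high genes ran from 9.28% to 11.3% and that of seed coat-high genes from 7.21% to 9.46%. Adjacent identifiers can be near-identical copies between which the counting may have split reads, so the values of single genes in such runs are uncertain, and the part of such copies in these shares was not tested.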

How the data were processed

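RNA was measured in 50 libraries of lentil seed tissue. Per the submitters' processing notes, the tools were DESeq2, featureCounts, Trimmomatic and CASAVA, listed with neither versions nor roles. Neither the aligner nor the genome build is given in the sources used here. The signal values as deposited are read counts that the authors divided by 1 factor per library: whole reads came out for 100% of the values within 0.001 reads, and the factors match size factors computed with DESeq2. Libraries held 13019472 to 35634980 reads. Counting intervals (95%, exact binomial) and floors (3 counts per library) cover counting error only, since amplified reads are not independent molecules.

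The main test was limma 3.58.1 in R 4.3.3 (trend, robust) on log2(normalized reads + 1), a scale that understates changes of low genes. It had 25 group coefficients over all 50 libraries, which left 25 residual degrees of freedom. A gene was tested if 2 or more libraries held 10 or more normalized reads of it (29440 of 58243). It passed at 2-fold or more if the Benjamini-Hochberg adjusted p, taken over every tested gene, was below 0.05. The contrasts were embryo minus seed coat at each of the 8 stages, and that difference at zygote minus the same at quadrant or minus the mean over the 7 later stages. A permutation test of 2 against 2 libraries cannot go below p = 0.33, so library summaries were not tested. The labels do not say that replicates are from separate plants, so p-values reflect only the spread between these samples, possibly technical.

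The members, gene lists and rules were chosen with earlier results of these data known. The named genes are the 2 in each direction with the largest difference at zygote, and the 2 in each direction with the largest zygote against later difference among genes that also passed at zygote in the same direction. All of them reached 100 normalized reads in the higher tissue and had replicates that did not overlap. The most abundant gene of each tissue was added. Lists by function and cell type markers were not tested, because no identifier is paired with a name. Other settings tried were TMM and quantile scaling, pseudocounts of 0.5 or 8, a filter of 50 or none, library weights, a replicate block, the compared libraries alone, no required fold, leaving out each zygote library, and thresholds of 8-fold and 32-fold for tissue-typical genes. On the recovered counts, DESeq2 1.42.0 and the quasi-likelihood test of edgeR 4.0.16 were also run. Chosen after seeing the data were a required level of 100, a crossed replicate block and leaving out 5 libraries with few genes at 0.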

Additional observations from a re-analysis of the deposited data

Results flagged for a closer look

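Tests of the difference between the zygote stage and quadrant, or the mean of the 7 later stages, passed for the following results. From zygote to quadrant, the embryo minus seed coat difference changed in 1711 genes that lay further towards embryo at zygote and in 623 genes that lay further towards seed coat. Against the mean of the 7 later stages the same test passed for 4025 genes towards embryo and 1930 towards seed coat.

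Among the named genes, the zygote against later log2 difference was 11.55 for Lcu.2RBY.1g001440 and 10.93 for Lcu.2RBY.6g010780, both towards embryo. It was -7.78 for Lcu.2RBY.2g007570 and -7.64 for Lcu.2RBY.7g056120, both towards seed coat. These genes were chosen for the size of this difference. Between zygote and quadrant alone, the change passed for Lcu.2RBY.2g007570 (adjusted p = 0.0297 by limma). It did not pass for Lcu.2RBY.1g001440 (0.686), Lcu.2RBY.6g010780 (0.863) or Lcu.2RBY.7g056120 (0.307).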

How the results depend on the processing

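No result changed direction under the alternatives run, apart from the balance of embryo-high and seed coat-high genes given with their counts. Of the 136 alternative values of counts, 121 stayed within 1.5 times the main count. Towards embryo at zygote against quadrant there were 2672 genes with library weights, 799 with quantile scaling and 1021 to 1275 when 1 zygote library was left out; towards seed coat there were 997, 359 and 259 to 433. Seed coat-high genes at zygote numbered 3899 with library weights and 1500 to 1820 when 1 library was left out, and embryo-high genes 1941 with at least 100 normalized reads required and 2124 to 2481 when 1 library was left out. The median log2 difference of embryo-typical genes (5.65) was 5.96 and 4.69 with pseudocounts of 0.5 and 8, 5.37 with quantile scaling, 6.65 and 4.20 with thresholds of 32-fold and 8-fold, and 5.56 to 5.81 when 1 library was left out. That of seed coat-typical genes (-1.62) was -1.73 with TMM, -1.89 with quantile scaling, -2.03 and -1.46 with the 2 thresholds, and -1.71 to -1.61 when 1 library was left out. With the 32-fold and 8-fold thresholds 85 and 372 seed coat-typical genes were seed coat-high. The lists of these thresholds differ in size from the 458 genes of the main threshold, so these counts are not shares of 458. The causes were not tested. Of 170 alternative values of named genes, 164 stayed on the same side of the threshold, and the others are given with those genes.

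Replicate numbers share nothing in the labels, and deviations of the same number correlated at -0.11 between the tissues, so they do not pair the samples. With a replicate block 2991 genes were embryo-high and 2506 seed coat-high at zygote, 1826 and 656 differed against quadrant, and 4102 and 1970 against later stages. With the seed coat numbers crossed in the block the counts were 3005 and 2534, 1880 and 686, and 4109 and 1977. With the 5 libraries that had few genes at 0 left out, none of them among the 4 compared, they were 2983 and 2531, 1890 and 769, and 3865 and 2046. At least 50.3% of the genes in the table had no read in an embryo library, so absence there was judged only against the floor of 3 counts.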
